A study of Mus musculus with 3 samples.

Results

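At 9 imprinted loci on 7 chromosomes, binding of ZFP57 and KAP1 was examined in lists of regions enriched by chromatin immunoprecipitation and sequencing (ChIP-seq) in mouse embryonic stem (ES) cells. The loci were set by position in the mouse build mm9, and a region belonged to a locus when its start lay in the locus's window. The windows were Zdbf2 on chromosome 1 from 63.22 to 63.28 Mb, Cdh15 on chromosome 8 from 125.36 to 125.42 Mb, Plagl1 on chromosome 10 from 12.78 to 12.84 Mb, Grb10 on chromosome 11 from 11.90 to 11.95 Mb, Zrsr1 on chromosome 11 from 22.85 to 22.90 Mb, Peg13 on chromosome 15 from 72.06 to 72.11 Mb, Slc38a4 on chromosome 15 from 96.86 to 96.91 Mb, Airn on chromosome 17 from 12.91 to 12.96 Mb and Impact on chromosome 18 from 13.11 to 13.16 Mb. They held 42 of the 88857 regions in the 3 lists: 11 of 22031 ZFP57 regions, 21 of 20870 KAP1 regions and 10 of 45956 control regions.

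The ZFP57 list came from an HA antibody in ES cells carrying an HA tagged ZFP57 transgene, and the control list from the same antibody in ES cells with no transgene. The KAP1 list came from a KAP1 (RBCC) antibody in E14 ES cells, also with no transgene. All cultures were kept in normal ES cell medium, and the sources used here do not give the promoter of the transgene, its level, the number of clones or the line behind both HA libraries. Each list is 1 library, so there is no replicate check and no test between conditions, and the KAP1 and HA-ZFP57 lists describe different cultures. The lists hold positions only: every region is 150 bp wide, without a height or score, and the depth is unknown.

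Genomic imprinting makes a gene's expression depend on the parent it came from. At each germline imprint, a stretch of DNA is methylated in the egg or the sperm and keeps that mark on that parental copy after fertilisation, while most other methylation in the embryo is erased. ZFP57 is a KRAB zinc finger protein that binds the methylated copy at a short motif, TGCCGC, and KAP1 (TRIM28) is the corepressor that its KRAB domain recruits, together with enzymes that methylate histones and DNA.

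From the RefSeq promoter table (GRCm38.p6), which gives 250 bases before and 50 after a start, 11 promoters were taken for 7 of the loci. Peg13 had no promoter matched by name. Impact was not searched, because promoters on its chromosome, 18, were left out of the selection for the loci. The hexamer TGCCGC was searched on both strands (GCGGCA on the other), and at least 1 match occurred in 11.6% of all 32851 promoters and in 3 of these 11. The upstream Zdbf2 promoter, which lies within the neighbouring gene Gpr1, held 3 matches, starting 155, 136 and 107 bases before the start. At least 3 matches occurred in 0.234% of all promoters. That threshold equals the Zdbf2 count, the highest of the 11, so the share does not measure how rare such a promoter is among 11 searched. Plagl1 held 1 match 90 bases before its start. Grb10 held 1 in its first promoter, after the start. The 250 bases before the start are shown for Zdbf2 (GRCm38.p6 chr1:63200108-63200357, plus strand) and Plagl1 (GRCm38.p6 chr10:13090582-13090831, plus strand), the 2 of these 7 loci with a match before the start, with the hexamers in capitals:
Zdbf2: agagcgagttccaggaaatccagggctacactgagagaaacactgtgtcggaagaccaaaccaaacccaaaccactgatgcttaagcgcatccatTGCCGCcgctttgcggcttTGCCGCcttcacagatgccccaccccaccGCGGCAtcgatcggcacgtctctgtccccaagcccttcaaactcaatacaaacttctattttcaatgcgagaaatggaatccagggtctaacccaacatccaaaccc
Plagl1: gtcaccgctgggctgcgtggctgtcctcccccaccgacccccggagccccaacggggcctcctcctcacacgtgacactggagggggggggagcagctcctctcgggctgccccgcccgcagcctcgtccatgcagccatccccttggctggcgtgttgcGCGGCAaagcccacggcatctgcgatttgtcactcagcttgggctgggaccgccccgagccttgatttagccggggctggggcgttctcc

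The 3 matches in the Zdbf2 stretch lie close together, 2 on the gene's strand and 1 on the other. The remaining promoters of these genes (the second Zdbf2 and Grb10 promoters, Cdh15, Zrsr1, Airn and all 3 of Slc38a4) held no match, which says only that the letters are not in those windows. The promoters are placed in another build than the listed regions, so the distance from a promoter to a region was not analysed here. A match describes the sequence and does not mark a bound site.

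ZFP57 regions were listed at 8 of the 9 loci and KAP1 regions at the same 8, and Slc38a4 had neither. These counts refer to the windows, and whether the ZFP57 region in the Impact window lies at the imprint was not settled. At 7 loci a ZFP57 region overlapped a KAP1 region by at least 1 bp. At Cdh15, the remaining locus with both, they lay 11 bp apart. Among all windows of the genome, a ZFP57 region was present in 15.2% of 50 kb windows and 17.5% of 60 kb windows, the 2 widths of the locus windows (6 of 50 kb and 3 of 60 kb). A KAP1 region was present in 11.5% and 13.1%. An overlapping pair within the window was present in 3.58% and 4.13%, against the 7 of 9 loci here.

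Control regions were listed in 6 of the 9 windows, where 38.3% of 50 kb and 42.7% of 60 kb windows held one. In none of these 6 did a control region overlap a ZFP57 or KAP1 region. Plagl1, the window given for Peg13 and Impact held both proteins' regions with 0 control regions, a combination present in 0.678% of 50 kb and 0.809% of 60 kb windows. This last group depended on the window edges, since control regions lay just outside at Plagl1 (140 bp above the window) and Impact (2.23 kb below). With 25 kb added on each side, 0 loci had both proteins' regions and no control region.

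**Figure D1:**
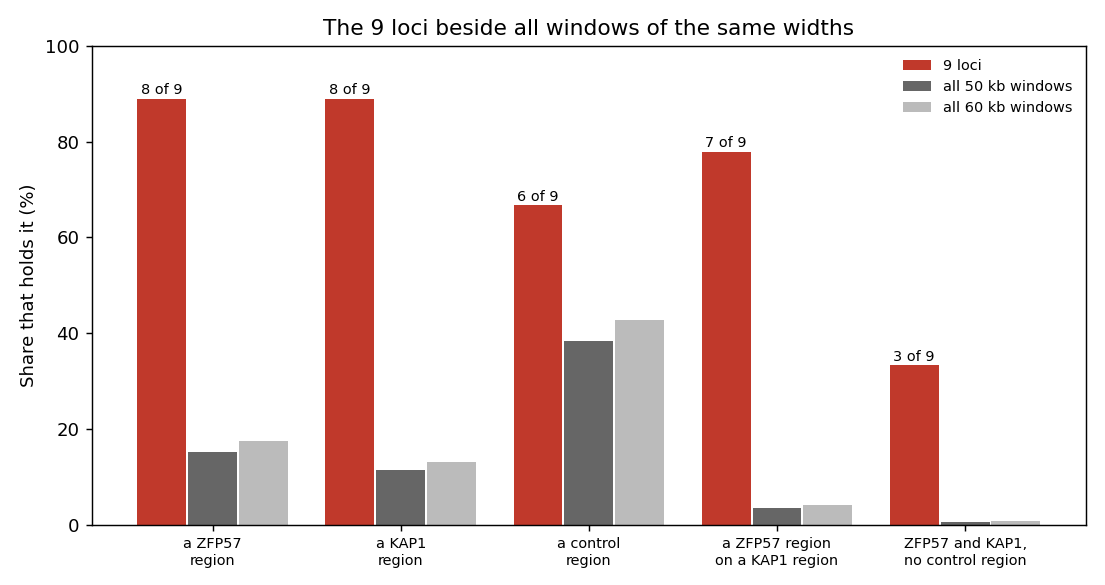
Share of the 9 loci (red, with the number of loci) and of all 50 kb and 60 kb windows of the genome (dark and light grey) that hold each kind of region, in percent, from 1 library per list. The loci stand at 8 of 9 for ZFP57 and for KAP1, where 11.5 to 17.5% of all windows hold such a region.

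**Figure D2:**
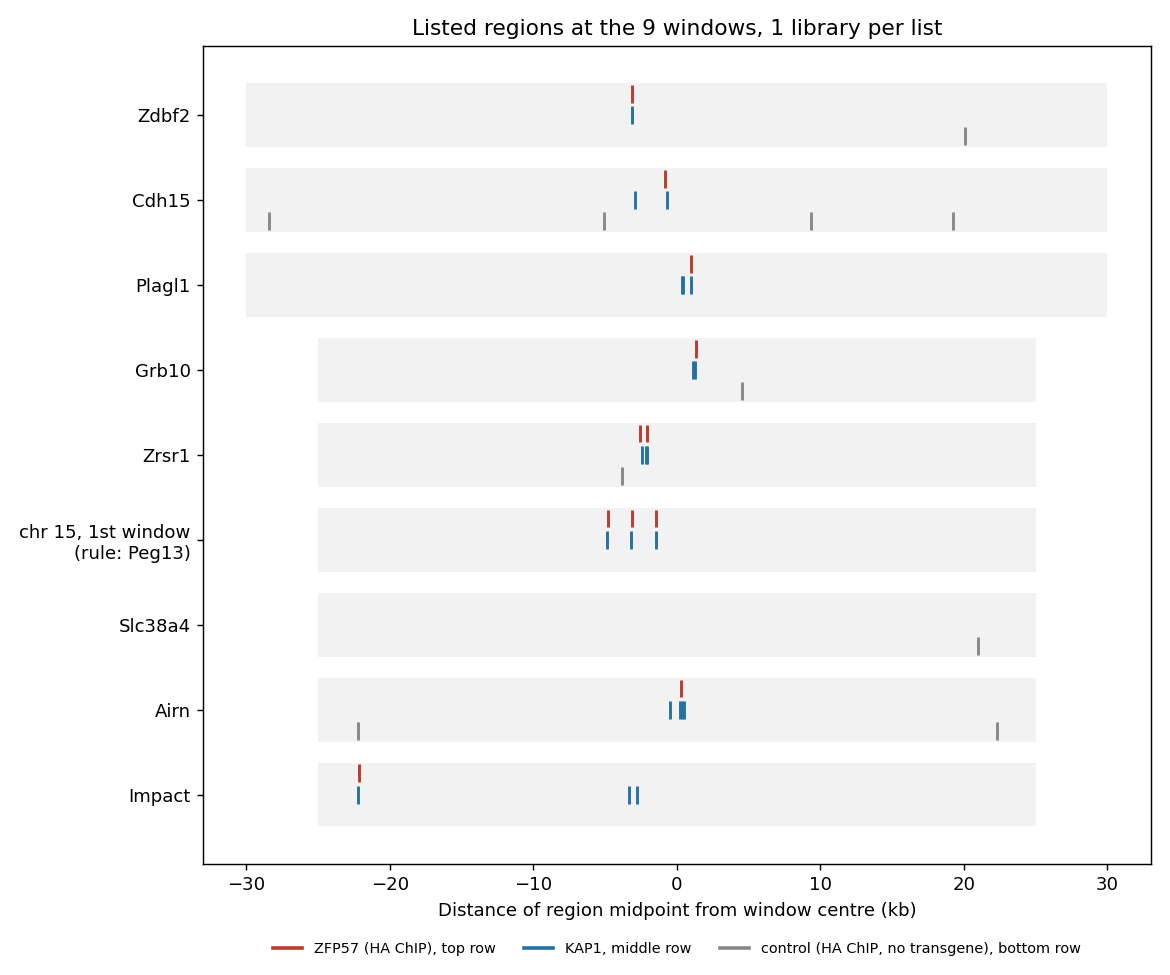
Midpoints of all 42 listed regions by distance in kb from the centre of each locus's window (grey band, 50 or 60 kb wide), with ZFP57 in the top row, KAP1 in the middle row and control in the bottom row. ZFP57 and KAP1 marks sit together at 8 loci, while Slc38a4 has a control mark alone and Impact has a second KAP1 group without ZFP57.

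Plagl1 and Grb10 encode regulators of growth. Plagl1 (Zac1), a zinc finger transcription factor expressed from the paternal copy, had 1 ZFP57 region at chr10:12810887-12811036 (mm9, as for all regions). It had 3 KAP1 regions, starting at 12810274, 12810375 and 12810917. The last KAP1 region overlapped the ZFP57 region by 120 bp, and the others overlapped each other and lay 362 and 463 bp away from it. The 4 regions together spanned 793 bp, and the nearest control region, outside the window, was 29104 bp from the ZFP57 region. Grb10, an adaptor protein that restrains signalling by insulin and related receptors, had 1 ZFP57 region at chr11:11926253-11926402. Its 2 KAP1 regions started at 11926068 and 11926215, and the second overlapped the ZFP57 region by 112 bp. The Grb10 group was compact, with 335 bp from first to last base, and a control region lay 3060 bp from the ZFP57 region.

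Zrsr1 and Airn are both transcribed from within another gene. Zrsr1, a paternally expressed gene that lies in an intron of Commd1, had 2 ZFP57 regions, at chr11:22872329-22872478 and chr11:22872849-22872998. Its 3 KAP1 regions started at 22872471, 22872795 and 22872862, and each overlapped a ZFP57 region. The first pair overlapped by only 8 bp, while the others overlapped by 96 and 137 bp. Zrsr1 was also the locus where a control region came closest, 1093 bp below the first ZFP57 region.

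Airn is a noncoding RNA that runs antisense to Igf2r and silences it on the paternal copy. Its window had the most KAP1 regions of the 9, with 4 starting at 12934470, 12935146, 12935276 and 12935439 on chromosome 17. The KAP1 regions starting at 12935146 and 12935276 overlapped each other, and the lead rests on counting them apart. Airn had 1 ZFP57 region, at chr17:12935203-12935352. The ZFP57 region overlapped the middle pair of KAP1 regions by 93 and 77 bp and so lay across the place where they meet. The last KAP1 region lay 86 bp above it and the first 583 bp below it. Both control regions of the window were near its ends, 21901 bp or more from the ZFP57 region.

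Zdbf2, a paternally expressed gene named for its DBF4-type zinc finger, had the simplest pattern. Its ZFP57 region at chr1:63246794-63246943 and its KAP1 region at chr1:63246800-63246949 were offset by 6 bp and shared 144 of 150 bp, the closest pair in the given windows. The control region of that window lay 23057 bp away. KAP1 was otherwise sparse here: it was the only KAP1 region in the 1 Mb around the window's centre. Cdh15 encodes M-cadherin, an adhesion protein of muscle cells. Its ZFP57 region was at chr8:125389095-125389244, and its KAP1 regions were at chr8:125386987-125387136 and chr8:125389256-125389405. The nearer KAP1 region began 11 bp above the end of the ZFP57 region, and their midpoints were 161 bp apart. Cdh15 had the most control regions of the 9 windows, 4, of which the nearest was 4091 bp from the ZFP57 region and 1983 bp from a KAP1 region.

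**Figure D3:**
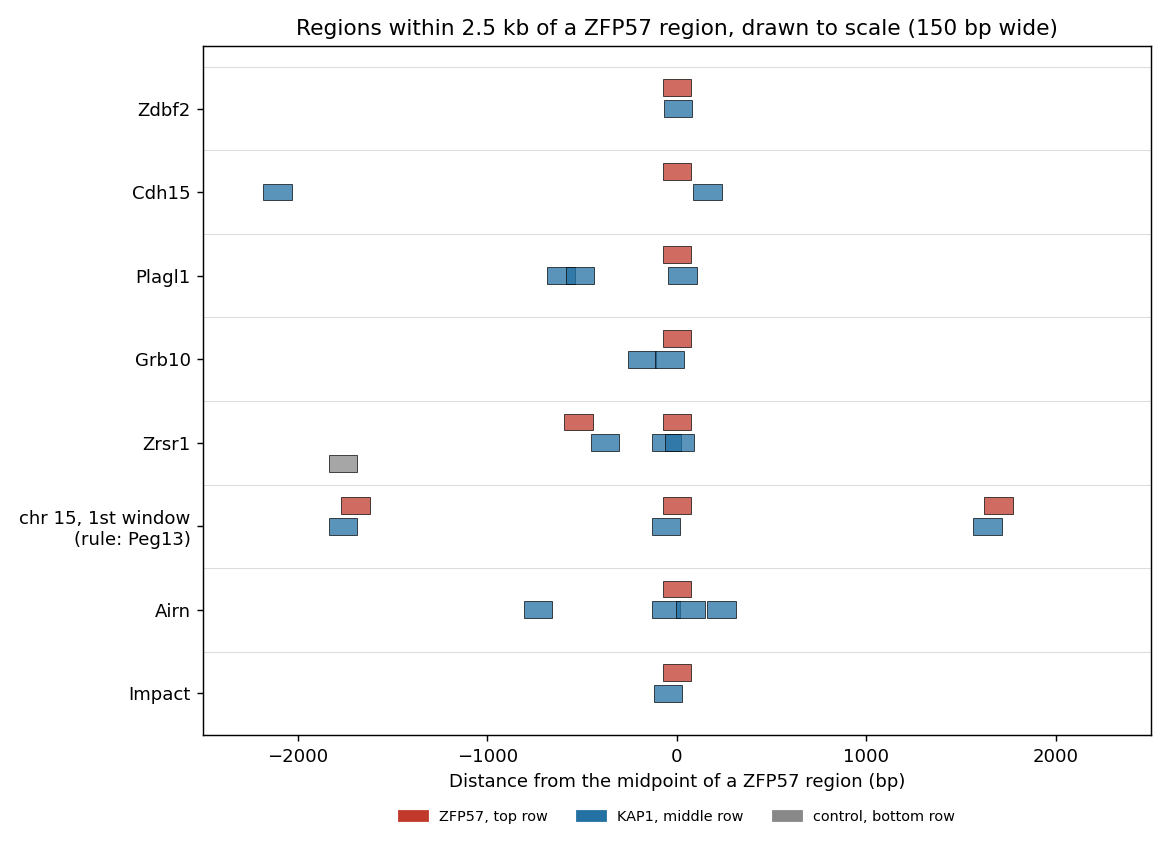
Regions to scale (150 bp each) within 2.5 kb of a ZFP57 region at the 8 loci that have one, by distance in bp from its midpoint (the middle region where there are 3, the second where there are 2), with ZFP57 on top, KAP1 in the middle and control at the bottom. At each locus but Cdh15 (11 bp apart) at least 1 KAP1 box overlaps a ZFP57 box, further KAP1 boxes stand beside it at Cdh15, Plagl1, Grb10 and Airn, and a control box appears only at Zrsr1.

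Impact and Slc38a4 differed from the loci above. Impact, an inhibitor of the stress kinase GCN2 that is expressed from the paternal copy, had 1 ZFP57 region at chr18:13112762-13112911, overlapped over 103 bp by a KAP1 region at chr18:13112715-13112864. A second KAP1 group, with regions starting at 13131602 and 13132160, had its nearest ZFP57 region 18690 bp away. The overlapping pair lay near the lower edge of the window, and the second KAP1 group lay near its centre. Which of these sites is the Impact imprint was not settled, because no mm9 annotation was used here. Impact is therefore counted among the loci with ZFP57 regions and overlapping pairs by its window only. Just below the window, ZFP57 and KAP1 each had a region at chr18:13107788-13107937, and the control had one at chr18:13107771-13107920, so all 3 lists held that site. The ZFP57 region in the Impact window lay 4841 bp from that control region. With windows narrowed by 10 kb on each side, Impact lost its ZFP57 region and kept the second KAP1 group.

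Slc38a4, an amino acid transporter expressed from the paternal copy in placenta, had 0 ZFP57 regions, 0 KAP1 regions and 1 control region, at chr15:96905919-96906068. The nearest KAP1 region began 2.63 kb above the window's upper edge, at chr15:96912634-96912783, and entered when windows were widened by 25 kb. The nearest ZFP57 region was 43.1 kb below the window. Whether binding at Slc38a4 fell just under the threshold of either list was not tested, because the lists carry no score.

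Peg13, a paternally expressed noncoding RNA, lies inside Trappc9 in the GRCm38 RefSeq gene table. As far as known, it lies in mm9 about 0.55 Mb above the window given for it, and no mm9 annotation was used here to settle this. The given window and a window moved by 0.55 Mb are therefore both described, and the first is not taken as the gene.

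The given window held 3 ZFP57 regions, at chr15:72080111-72080260, chr15:72081808-72081957 and chr15:72083505-72083654, and 3 KAP1 regions starting at 72080046, 72081750 and 72083447. The ZFP57 starts were spaced by 1697 bp and again by 1697 bp, and the KAP1 starts by 1704 and 1697 bp. Each ZFP57 region overlapped its KAP1 region by 85, 92 and 92 bp, with the KAP1 region always lower. Of all runs of 3 neighbouring regions with both spacings over 150 bp and up to 10 kb, 1.92% of the ZFP57 runs and 2.01% of the KAP1 runs were equally spaced within 10 bp, a tolerance chosen after these values were seen. Repeated sequence under the 3 sites, which could share reads, was not tested for. The nearest control region was 45402 bp away, and the next ZFP57 region outside the window was 530 kb away, inside the moved window.

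The moved window, from 72.61 to 72.66 Mb, held 2 ZFP57 regions, at chr15:72640174-72640323 and chr15:72640454-72640603. Its 1 KAP1 region, at chr15:72640455-72640604, overlapped the second ZFP57 region over 149 of 150 bp, with midpoints 1 bp apart, and lay 131 bp from the first. The 1 control region in the moved window was 10106 bp from the nearest ZFP57 region. Both positions on chromosome 15 thus held overlapping ZFP57 and KAP1 regions away from control regions, and with the moved window in place of the given one the counts of loci with ZFP57 regions, KAP1 regions and overlapping pairs were again 8, 8 and 7.

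Over all loci, 10 of 11 ZFP57 regions overlapped a KAP1 region (90.9%, exact Clopper-Pearson 95% interval 58.7 to 99.8%, which covers counting error only and treats neighbouring regions as independent). In the whole ZFP57 list 44.7% did, and among ZFP57 regions that overlapped no control region 19.2% did. Midpoints of the 11 ZFP57 regions lay 6 to 161 bp from the nearest KAP1 midpoint, with a median of 57 bp, where the median over all 22031 ZFP57 regions was 284 bp. In the other direction 12 of 21 KAP1 regions overlapped a ZFP57 region (57.1%, interval 34.0 to 78.2%). The interval covers the 47.5% of all KAP1 regions, and lies above the 20.1% of those on no control region. The window given for Peg13 supplied 3 of the ZFP57 and 3 of the KAP1 regions, all of them overlapping. In the moved window the first ZFP57 region overlapped KAP1 by 0 bp and the second by 149 bp. Leaving out the given window would lower both shares, since all its regions overlap, and would leave 8 ZFP57 and 18 KAP1 regions. The shares and the median distance were not computed again without that window.

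The 9 KAP1 regions without an overlapping ZFP57 region were at Plagl1 (2), Airn (2), Cdh15 (2), Impact (2) and Grb10 (1). All but 3 of them had a ZFP57 midpoint within 1 kb. KAP1 regions outnumbered ZFP57 regions at 6 loci, equalled them at 2 (Zdbf2 and the window given for Peg13) and were fewer at 0. Among the 50 kb windows of the genome with both, 29.5% held more KAP1 than ZFP57 regions. The KAP1 list is the shorter of the 2, but depth and threshold are unknown, so the numbers are not amounts of binding. Merging touching regions left 17 KAP1 and 11 ZFP57 regions, with KAP1 ahead at 4 loci and equal at 4. The 29.5% is for unmerged regions, and no share was computed for merged regions or for 60 kb windows. With the moved window KAP1 was ahead at 6, equal at 1 and fewer at 1, the moved window itself.

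Overlap with a control region was found for 0 of the 11 ZFP57 regions, which allows a share of up to 27.3% by the limit of 3 counts (exact upper bound 28.5%), where 49.0% of the whole ZFP57 list did. It was found for 0 of the 21 KAP1 regions, which allows up to 14.3% by the same limit (exact upper bound 16.1%), where 47.1% of the whole KAP1 list did. These limits also treat neighbouring regions as independent, although merging touching KAP1 regions left only 17. The gap from a ZFP57 region to the nearest control region was 1093 bp at the lowest (Zrsr1), 21901 bp at the median (Airn) and 48796 bp at the highest (the window given for Peg13), and the median over the whole list was 17 bp. The median rested on the 3 regions of that last window: it was 4.47 kb over 8 regions without them and 7.47 kb over 10 regions with the moved window in their place. Gaps over 10 kb numbered 6 of 11 in the given windows, 3 of 8 without that window and 5 of 10 with the moved window. The moved window's regions passed narrowly, with gaps of 10106 and 10386 bp. The share of the whole ZFP57 list with a gap over 10 kb was not computed, so these counts have no background beside them.

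**Figure D4:**
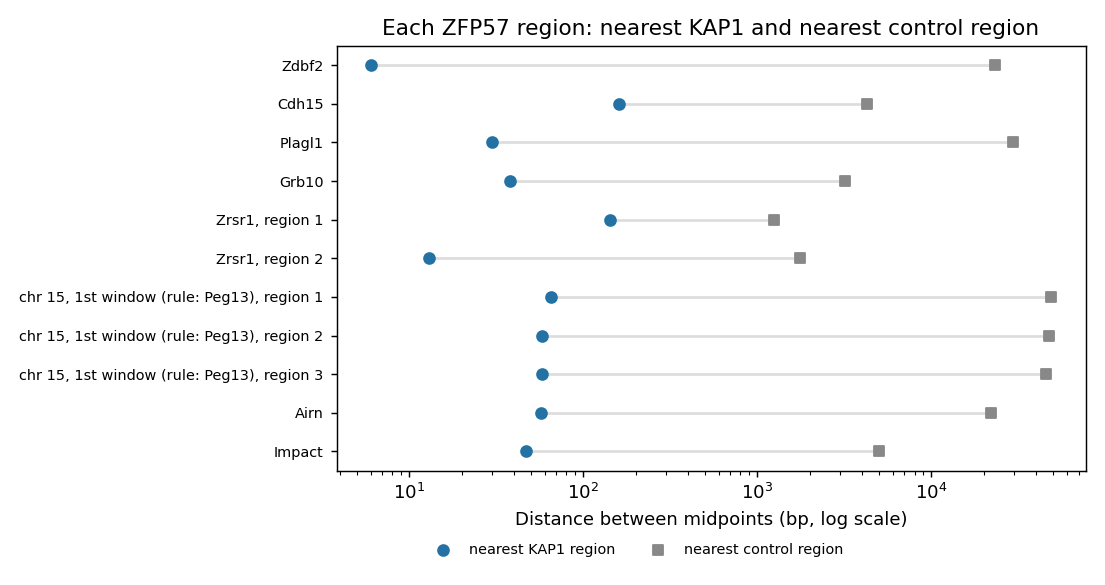
Distance between midpoints, in bp on a log scale, from each of the 11 ZFP57 regions at the loci to the nearest KAP1 region (blue circles) and the nearest control region (grey squares). KAP1 distances run from 6 to 161 bp, and every control square lies farther right, from 1243 bp upward.

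The surroundings of the loci differed in density. In the 1 Mb around each window's centre, the 8 loci other than Airn held 2 to 9 ZFP57 regions (median 4), 1 to 10 KAP1 regions (median 4) and 5 to 52 control regions (median 16). The whole lists, dense blocks included, averaged 8.34, 7.90 and 17.4 regions per Mb. Of the 9 loci, 7 lay below that average for ZFP57, 6 for KAP1 and 6 for the control. Below it in all 3 lists lay 4: Plagl1, Grb10, the window given for Peg13 and Slc38a4. Dense blocks raise these averages, and the share of all 1 Mb stretches below them was not computed. The counts therefore do not show the loci to lie in sparser surroundings than most of the genome. The regions of a window were in places all there was: the 3 ZFP57 regions of the window given for Peg13, the 3 KAP1 regions of Plagl1 and the 1 KAP1 region of Zdbf2 were the only ones of their lists in that 1 Mb. Airn lay beside a dense block, with 99 ZFP57, 71 KAP1 and 146 control regions in its 1 Mb, and its own window held 1 ZFP57, 4 KAP1 and 2 control regions.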

How the data were processed

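For each of 3 libraries the authors deposited a list of chromosome, start and end, without header or score. Bowtie and mm9 are named per the submitters' processing notes, while a peak caller, its threshold or control subtraction is not given in the sources used. The list therefore fixes what can be compared: presence and position, not height. Windows were read from the locus rule, and the members, lists and rules were chosen with earlier results of these data known. All 9 loci are named, empty ones included. Overlap counts from 1 bp; starts are given counted from 1. The genome outside the mitochondrial sequence was tiled into 50 kb and 60 kb windows up to the last listed region, with no allowance for sequence that short reads cannot be mapped to. No test between conditions was made. Overlap counts between lists equalled those of bedtools 2.31.1 for 6 ordered pairs, and the code was tested on simulated data. Alternatives changed the window, membership, merging, overlap, control distance and the Peg13 position. Python 3.11.15, numpy 2.4.6, pandas 2.3.3, scipy 1.17.1 and matplotlib 3.10.9 were used.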

Additional observations from a re-analysis of the deposited data

How the results depend on the processing

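No paired analysis was possible because every list is 1 library, and no replicate could be left out. The counts of loci with a ZFP57 region, a KAP1 region and an overlapping pair stayed within 1 of 8, 8 and 7 under every window, membership, merging and overlap setting, with the Peg13 window moved and without it. Counts that involve the control moved with the window. Widening by 25 kb on each side gave 21 control regions and 0 loci with both proteins' regions and no control region, and narrowing by 10 kb gave 5 control regions at 3 loci; wider windows take in more control regions by construction. Requiring no control region within 10 kb of a ZFP57 or KAP1 region, in place of none in the window, gave 4 such loci. These were Zdbf2, Plagl1, the window given for Peg13 and Airn. The share of genome windows that pass this changed rule was not computed. The shares of 0.678 and 0.809% belong to the rule of no control region in the window and do not apply to it. Impact dropped out, with a control region 4794 bp from a KAP1 region. Leaving out the window given for Peg13, an alternative chosen after seeing the data, gave 7 loci with ZFP57, 7 with KAP1 and 6 with an overlapping pair. The gaps to control regions and the balance of KAP1 and ZFP57 by Peg13 window and merging were also added after seeing the data. Counting only windows that hold a region of any list raised the genome shares to 32.9 and 34.5% for ZFP57, 24.9 and 25.8% for KAP1 and 7.77 and 8.14% for overlapping pairs, in 50 and 60 kb windows. Without a score in the lists, a stricter threshold could not be set. Unknown depth limits any reading of an empty window.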
